A study of Mus musculus with 8 samples.

Results

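The response of Gata1 knock-out (KO) mouse dendritic cells to LPS was taken from a table of read counts per gene. Dendritic cells capture antigen, mature on sensing microbes and present the antigen to T cells in lymph nodes, and Gata1 encodes a zinc-finger transcription factor best known for its part in making red blood cells, platelets, mast cells and eosinophils. The KO libraries with LPS (2, written KO LPS1 and KO LPS2) were set against the KO libraries at steady state without LPS (2, KO ST1 and KO ST2), which are 4 of the 8 libraries of the series. The other 4 came from wild-type (WT) dendritic cells, 2 at steady state and 2 with LPS, and entered the fit as groups of their own. The design text calls the libraries of a group biological replicates, without saying whether they are separate animals or cultures. The sources used here do not give the knock-out allele or the cells it was active in, the strain and age of the mice, the origin of the dendritic cells, or the dose and duration of LPS. The series title asks about CCL21-guided migration and polysialic acid, so the genes of that pathway are given below with the rest of the response.

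The total counts were 12243848 and 10174720 for KO ST1 and KO ST2 and 8889752 and 8005151 for KO LPS1 and KO LPS2, and the series ran from 8005151 to 15495249. Gata1 (chrX:7959260-7976663 of GRCm38) had 0 reads in all 4 KO libraries, which allows a level of up to 0.124 CPM (a read count scaled to library size) at steady state and 0.195 with LPS, counting error only. The gene was also rare in WT cells, with 1 and 10 reads at steady state and 0 and 1 with LPS, so Gata1 checks the genotype labels only weakly. The steady-state libraries resembled each other more than the LPS libraries did. The median SD of log2 CPM was 0.111 at steady state and 0.355 with LPS, and the libraries differed by more than 2-fold in 592 of 12442 genes (4.76%) at steady state and in 2474 (19.9%) with LPS. The spread behind every test was estimated over all 8 libraries, so p-values reflect library-to-library variation, part of which may be technical. Mature dendritic cell genes were abundant at steady state: the MHC class II chain gene H2-Aa stood at 4434 and 4382 CPM and the integrin gene Itgax, which encodes CD11c, at 619 and 384.

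LPS, a lipopolysaccharide of the outer membrane of Gram-negative bacteria, is handed by CD14 to toll-like receptor 4 with its partner MD-2. One arm of signalling runs through the adaptor MyD88 to NF-kB and MAP kinases and induces cytokines, chemokines and feedback inhibitors. The other runs through the adaptors TRAM and TRIF to interferon regulatory factors, and the type I interferon made there induces antiviral genes through a receptor and the transcription factors it activates. In dendritic cells LPS is also known to end antigen uptake, raise costimulatory molecules and CCR7, and shift metabolism towards glycolysis.

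Promoter sequence is shown for induced and cell cycle genes that hold motifs, because the 2 arms are read out at different DNA motifs. The induced genes were drawn only from those picked by the rule for named genes given below, and cell cycle genes from their list. Called genes among these were taken in order of fold change, and those without the motifs were passed over. Other called genes were not considered. Induced genes had to hold a kB-like or ISRE-like motif and cell cycle genes a CCAAT box and a CHR element, defined below. The motifs of the printed genes therefore follow from that choice. Motifs were searched on both strands from 250 bases before to 50 after the gene start in the RefSeq promoter table of GRCm38.p6. The kB-like motif was GGGNNTTTCC, the ISRE-like motif GAAANNGAAA, the CCAAT box CCAAT and the CHR element TTTGAA, and no 2 hits in the printed stretches overlap. The 250 bases before the start are printed 5′ to 3′ on the strand of the gene, with motif hits in capitals. A gene can have several starts and windows, and the first window that held the motifs was printed. For Saa3 that window lies inside the span of the gene (chr7:46711998-46719615), so it does not precede the outermost start. Saa3 (an acute-phase protein, minus strand, chr7:46715677-46715926) holds an ISRE-like motif, and Marco (a scavenger receptor, minus strand, chr1:120505025-120505274) a kB-like motif. The chemokine genes Cxcl2 (plus strand, chr5:90903649-90903898) and Cxcl3 (plus strand, chr5:90785851-90786100) hold kB-like motifs, and the antiviral gene Ifit1 (plus strand, chr19:34640639-34640888) holds an ISRE-like motif on the opposite strand at 2 places.
Saa3: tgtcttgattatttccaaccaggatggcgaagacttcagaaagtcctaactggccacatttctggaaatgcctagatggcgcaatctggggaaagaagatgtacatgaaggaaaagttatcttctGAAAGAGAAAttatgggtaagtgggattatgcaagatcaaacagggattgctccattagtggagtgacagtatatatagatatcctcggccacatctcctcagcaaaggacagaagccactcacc
Marco: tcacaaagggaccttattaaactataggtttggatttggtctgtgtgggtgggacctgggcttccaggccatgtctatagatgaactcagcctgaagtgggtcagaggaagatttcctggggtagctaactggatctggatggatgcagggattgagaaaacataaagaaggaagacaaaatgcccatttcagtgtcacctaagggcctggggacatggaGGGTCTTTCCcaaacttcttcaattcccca
Cxcl2: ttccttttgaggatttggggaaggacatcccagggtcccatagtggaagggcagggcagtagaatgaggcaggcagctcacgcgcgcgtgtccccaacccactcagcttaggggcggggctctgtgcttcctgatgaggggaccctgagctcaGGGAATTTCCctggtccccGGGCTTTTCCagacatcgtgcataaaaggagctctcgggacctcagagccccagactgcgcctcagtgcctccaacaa
Cxcl3: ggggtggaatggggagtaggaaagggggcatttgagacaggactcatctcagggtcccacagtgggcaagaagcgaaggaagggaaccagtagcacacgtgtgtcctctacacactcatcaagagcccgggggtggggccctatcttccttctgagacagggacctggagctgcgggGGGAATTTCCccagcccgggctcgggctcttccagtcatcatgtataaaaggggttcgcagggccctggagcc
Ifit1: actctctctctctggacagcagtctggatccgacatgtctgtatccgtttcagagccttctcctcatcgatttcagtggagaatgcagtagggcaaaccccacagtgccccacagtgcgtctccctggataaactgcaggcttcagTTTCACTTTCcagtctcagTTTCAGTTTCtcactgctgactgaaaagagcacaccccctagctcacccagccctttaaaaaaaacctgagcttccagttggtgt

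An ISRE-like motif was present in 44 of the 511 genes called higher that had a window (8.61%), in 25 of 638 called lower (3.92%) and in 389 of 9946 tested genes (3.91%). A gene was counted if any of its windows held the motif. Among the interferon-stimulated genes described below it was found in 18 of 38 (47.4%), against 3.91% of tested genes and, counted per window, 3.44% of all 32851 windows. The kB-like motif was found in 16 of 511 genes called higher (3.13%), in 15 of 638 called lower (2.35%) and in 209 of 9946 tested genes (2.1%), and in 1.63% of all windows. It was present in 7 of 22 genes of the NF-kB pathway (31.8%) and in 3 of 8 CXC chemokines (37.5%). A match is a description of the letters in the window. Of 27 cell cycle genes with a window, 20 held a CCAAT box (74.1%) and 11 a CHR element (40.7%). The shares were 42.7% and 14.6% of tested genes and, counted per window, 37.4% and 17.9% of all windows. Ccnb2, which encodes the mitotic cyclin B2 (minus strand, chr9:70421555-70421804), holds 3 CCAAT boxes and a CHR element in the printed stretch. Aurka, which encodes the Aurora A kinase (minus strand, chr2:172370571-172370820), holds 2 CCAAT boxes there and a CHR element after the start.
Ccnb2: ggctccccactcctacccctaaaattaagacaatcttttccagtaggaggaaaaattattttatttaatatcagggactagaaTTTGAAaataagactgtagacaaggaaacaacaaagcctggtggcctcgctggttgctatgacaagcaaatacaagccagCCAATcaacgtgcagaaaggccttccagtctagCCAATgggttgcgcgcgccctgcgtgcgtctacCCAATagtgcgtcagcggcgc
Aurka: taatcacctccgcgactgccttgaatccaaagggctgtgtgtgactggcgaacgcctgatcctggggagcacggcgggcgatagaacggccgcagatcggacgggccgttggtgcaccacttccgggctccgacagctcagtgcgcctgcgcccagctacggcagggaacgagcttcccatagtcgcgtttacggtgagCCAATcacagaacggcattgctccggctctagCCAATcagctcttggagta

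Of 12442 genes tested, 1463 (11.8%) differed between LPS and steady state in KO cells at a Benjamini-Hochberg adjusted p under 0.05 in edgeR's quasi-likelihood test. LPS raised 659 genes (5.3%) and lowered 804 (6.46%). The genes called lower moved further, with a median log2 fold change of -2.69 against 2.21 for the genes called higher and -0.02 for all genes tested. More than 8-fold changes numbered 224 upward and 357 downward, and more than 32-fold changes 84 and 122. In all 1463 called genes each LPS library lay on the same side of both steady-state libraries, which was also true of 72.6% of all genes tested. A group had 0 reads in 57 of the called genes, 44 of them lower and 13 higher, and a fitted fold change of such a gene is no bound. In bulk RNA, fewer cells of a type and less RNA per cell cannot be told apart. The number of calls depended on single libraries: it ran from 143 (without KO ST2) and 144 (without KO ST1) through 249 (without KO LPS2), 611 (without WT ST1), 634 (without WT ST2) and 884 (without KO LPS1) to 3328 (without WT LPS2) and 3345 (without WT LPS1). No called gene changed sign in any of these fits, and 103 genes (55 higher and 48 lower) were called in all of them.

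**Figure D1:**
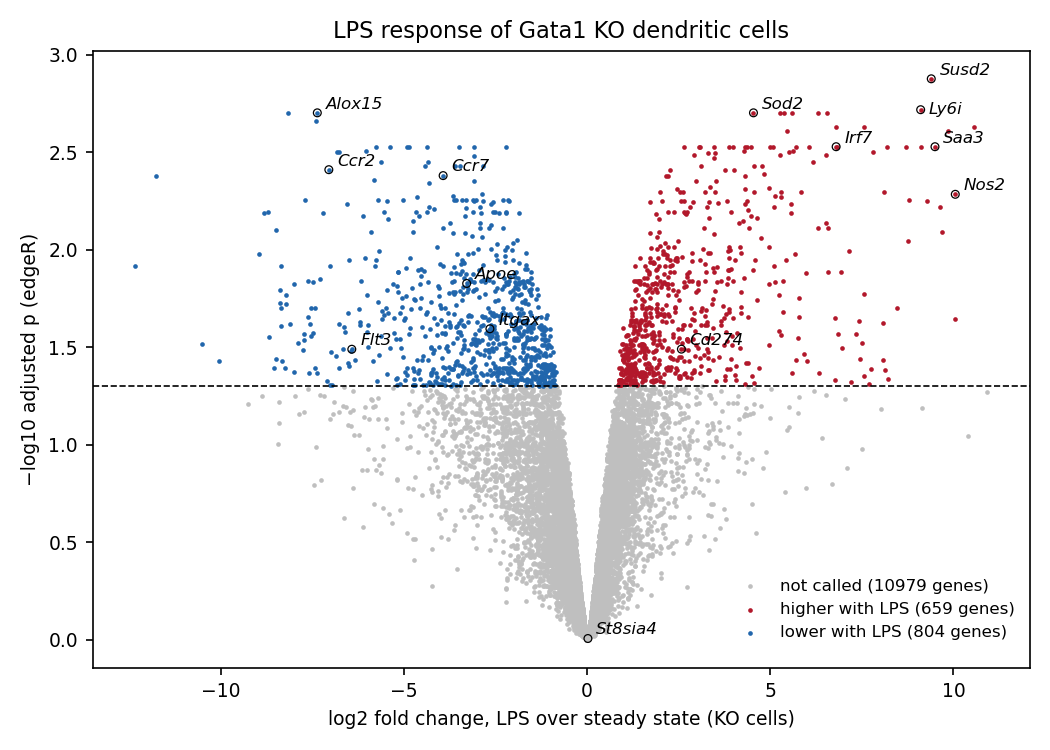
Each point is 1 of the 12442 genes tested, with its log2 fold change of LPS over steady state in KO cells on the x axis and the −log10 of its edgeR adjusted p on the y axis. Red and blue points are the 659 and 804 genes above the dashed line (adjusted p of 0.05), and circles mark genes named in the text, such as Nos2 at 10.05 and Ccr2 at -7.05.

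The genes with the 12 highest fold changes include those of nitric oxide and itaconate synthesis, acute-phase and iron-withholding proteins and Ly6 surface antigens. Nos2 (chr11:78920787-78960226), the inducible nitric oxide synthase, stood at 0.776 and 0.354 CPM in the steady-state libraries and at 252 and 987 CPM in the LPS libraries, a log2 fold change of 10.05 ± 1.17 (adjusted p = 0.00520). Lcn2 (chr2:32384637-32387739), which binds bacterial siderophores, went from 2.09 and 3.81 to 2078 and 2759 CPM (9.68 ± 1.33, adjusted p = 0.00810). Saa3 (chr7:46711998-46719615), a serum amyloid protein, went from 8.07 and 10.9 to 3573 and 10120.2 CPM (9.50 ± 0.88, adjusted p = 0.00297), and its near-identical relatives make the assignment of its reads uncertain. Irg1 (chr14:103047012-103056573, now Acod1), the enzyme that makes itaconate, went from 3.41 and 6.38 to 765 and 1079 CPM (7.56 ± 0.59, adjusted p = 0.00236). In these 4 genes both LPS libraries were far above both steady-state libraries, and KO LPS2 was above KO LPS1. Orm1 (chr4:63344556-63348163), an acute-phase plasma protein of a family of close copies, went from 0.465 and 0.531 to 84.9 and 214 CPM (8.20 ± 0.78, adjusted p = 0.00297). Ly6c2 (chr15:75108161-75112066) and Ly6i (chr15:74979534-74983434) encode surface antigens of inflammatory myeloid cells and belong to a family of close copies. Ly6c2 went from 0.698 and 0.974 to 336 and 605 CPM (9.12 ± 0.79, adjusted p = 0.00297). Ly6i went from 0.543 and 1.24 to 451 and 531 CPM (9.10 ± 0.53, adjusted p = 0.00192). All 3 were close to 0 without LPS. Of the 7 called genes named here, 5 (Saa3, Irg1, Orm1, Ly6c2 and Ly6i) stayed called without each of the 8 libraries in turn. Calls lost numbered 2 without KO ST2 and 1 without KO ST1, with an adjusted p of up to 0.0796 and log2 fold changes within 1.32 of those given.

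The other genes among the 12 highest encode membrane, matrix and signalling proteins. Susd2 (chr10:75636619-75644008), a sushi-domain membrane protein, went from 0.310 and 0.620 CPM at steady state to 300.4 and 332 with LPS (9.39 ± 0.47, adjusted p = 0.00133). Marco (chr1:120474538-120505024), a scavenger receptor for bacteria, went from 0.233 and 0.885 to 241 and 246 CPM (8.77 ± 1.05, adjusted p = 0.00554). The 2 LPS libraries almost coincided in both genes. Inhba (chr13:16004256-16031609), which encodes the subunit of activin A, went from 1.24 and 2.39 to 300.1 and 969 CPM (8.45 ± 1.56, adjusted p = 0.0198). Slfn4 (chr11:83175172-83190216), a schlafen family member, went from 1.63 and 1.59 to 614 and 275 CPM (8.10 ± 0.93, adjusted p = 0.00507). Lox, which encodes the collagen-crosslinking lysyl oxidase, went from 0.388 and 2.48 to 398 and 237 CPM (7.81 ± 0.76, adjusted p = 0.00315). Inhba was higher in KO LPS2, and Slfn4 and Lox were higher in KO LPS1, all without overlap with steady state. The calls of 2 of these 5 genes (Susd2 and Lox) did not depend on any 1 of the 8 libraries. Calls lost numbered 3 without KO ST1, 2 without KO ST2 and 1 without KO LPS2, with an adjusted p of up to 0.138 and log2 fold changes within 1.85 of those given.

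The genes with the 12 lowest fold changes include 6 for surface receptors. Ccr2 (chr9:124101918-124109140), the receptor that brings monocytes and their progeny to tissue, fell from 648 and 835 CPM at steady state to 8.81 and 2.14 with LPS, a log2 fold change of -7.05 ± 0.75 (adjusted p = 0.00389). Mrc1 (chr2:14229414-14332023), the macrophage mannose receptor, fell from 231 and 185 to 5.87 and 0.306 CPM (-6.005 ± 1.07, adjusted p = 0.0171). Asgr2 (chr11:70092644-70106187), a subunit of the asialoglycoprotein receptor, fell from 55.6 and 126 to 1.24 and 0.612 CPM (-6.55 ± 0.81, adjusted p = 0.00582). Each of these receptors was nearly lost in both LPS libraries. Siglec5 (chr7:43351341-43359475), a sialic acid-binding receptor also known as Siglec-F, fell from 154 and 188 to 0.565 and 3.37 CPM (-6.51 ± 0.98, adjusted p = 0.0113). Fcrls (chr3:87250736-87263765), an Fc receptor-like scavenger protein, fell from 178 and 209.6 to 0.904 and 2.76 CPM (-6.77 ± 0.66, adjusted p = 0.00315). Il18r1 (chr1:40465552-40500854), a chain of the interleukin 18 receptor, fell from 65.1 and 85.98 to 2.94 and 0.306 CPM (-5.45 ± 1.03, adjusted p = 0.0211). No LPS library of the 6 genes came near a steady-state library. With each library left out in turn, 2 of the 6 calls (Ccr2 and Fcrls) remained in all 8 fits. Calls lost numbered 3 without KO ST2, 3 without KO ST1, 3 without KO LPS2, 1 without WT ST2 and 1 without WT ST1, with an adjusted p of up to 0.110 and log2 fold changes within 3.35 of those given.

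Transporters, a channel subunit and a transcription factor make up most of the remaining 6 of the 12 lowest. Slco2b1 (chr7:99657804-99711340), an organic anion transporter, fell from 133 and 119.9 to 1.02 and 0.153 CPM (-7.62 ± 1.47, adjusted p = 0.0221), the lowest of the 12. Slc4a8 (chr15:100761747-100823971), a sodium-driven bicarbonate exchanger, fell from 106 and 83.5 to 3.28 and 0.919 CPM (-5.44 ± 0.72, adjusted p = 0.00694). Scn4b (chr9:45138624-45154155), a sodium channel beta subunit, fell from 87.7 and 54.2 to 2.03 and 0.306 CPM (-5.82 ± 0.64, adjusted p = 0.00438). In these 3 genes KO LPS2 was the lowest library. Spib (chr7:44525995-44532087), an Ets factor of B cells and plasmacytoid dendritic cells, fell from 134 and 102 to 2.60 and 1.22 CPM (-5.90 ± 0.81, adjusted p = 0.00810). Klk1b11 (chr7:43995877-43999875) belongs to a kallikrein family of close copies and fell from 447 and 623 to 11.4 and 19.9 CPM (-5.10 ± 1.32, adjusted p = 0.0486). S100a4 (chr3:90603770-90606045), a calcium-binding protein of motile cells, fell from 285 and 279.6 to 6.78 and 11.8 CPM (-4.93 ± 0.77, adjusted p = 0.0124). Among these 6 calls, 2 (Slc4a8 and Scn4b) remained whichever library was left out. Calls lost numbered 4 without KO LPS2, 3 without KO ST2, 3 without KO ST1, 3 without KO LPS1, 2 without WT ST2 and 2 without WT ST1, with an adjusted p of up to 0.218 and log2 fold changes within 1.98 of those given.

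**Figure D2:**
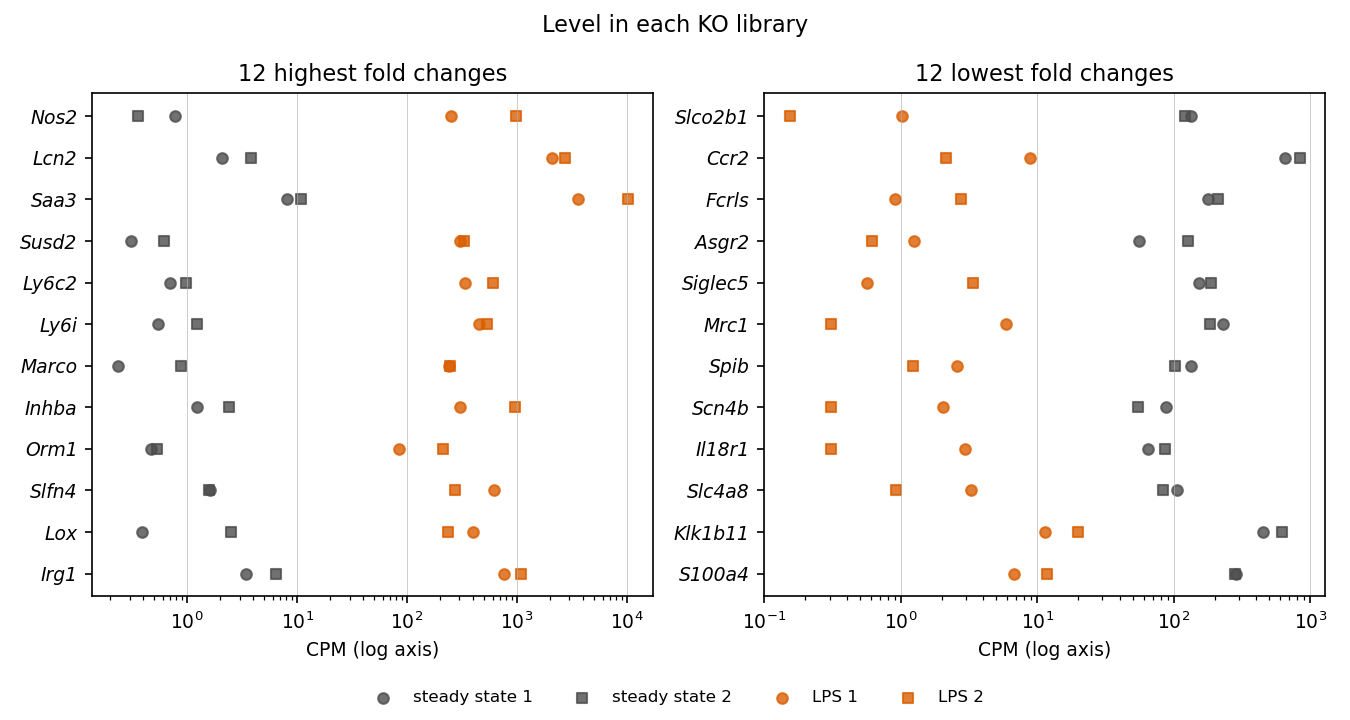
Points give the level (CPM, log axis) of the 12 genes with the highest (left) and the 12 with the lowest (right) log2 fold changes in each of the 4 KO libraries, grey for steady state and orange for LPS. The grey and orange points are separate in every gene, for example Ccr2 at 648 and 835 CPM against 8.81 and 2.14, and the 2 LPS libraries lie further apart than the 2 steady-state libraries in genes such as Nos2.

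Genes were next read by role in 41 lists. The shares called can be set against 5.3% higher and 6.46% lower over all genes tested. The shares called higher were 70% of the interferon-stimulated genes, 54.5% of the CXC chemokines, 40.9% of the antioxidant and iron genes, 40% of the MHC class I genes and 36.4% of the nitric oxide, arginine and itaconate genes, and each other list was below these. The shares called lower were 50% each of the dendritic cell markers, complement genes and eosinophil markers, 36.8% of the macrophage markers and 30.4% of the cholesterol synthesis genes, and each other list was below these. No list was tested as a list, and several genes belong to more than 1.

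**Figure D3:**
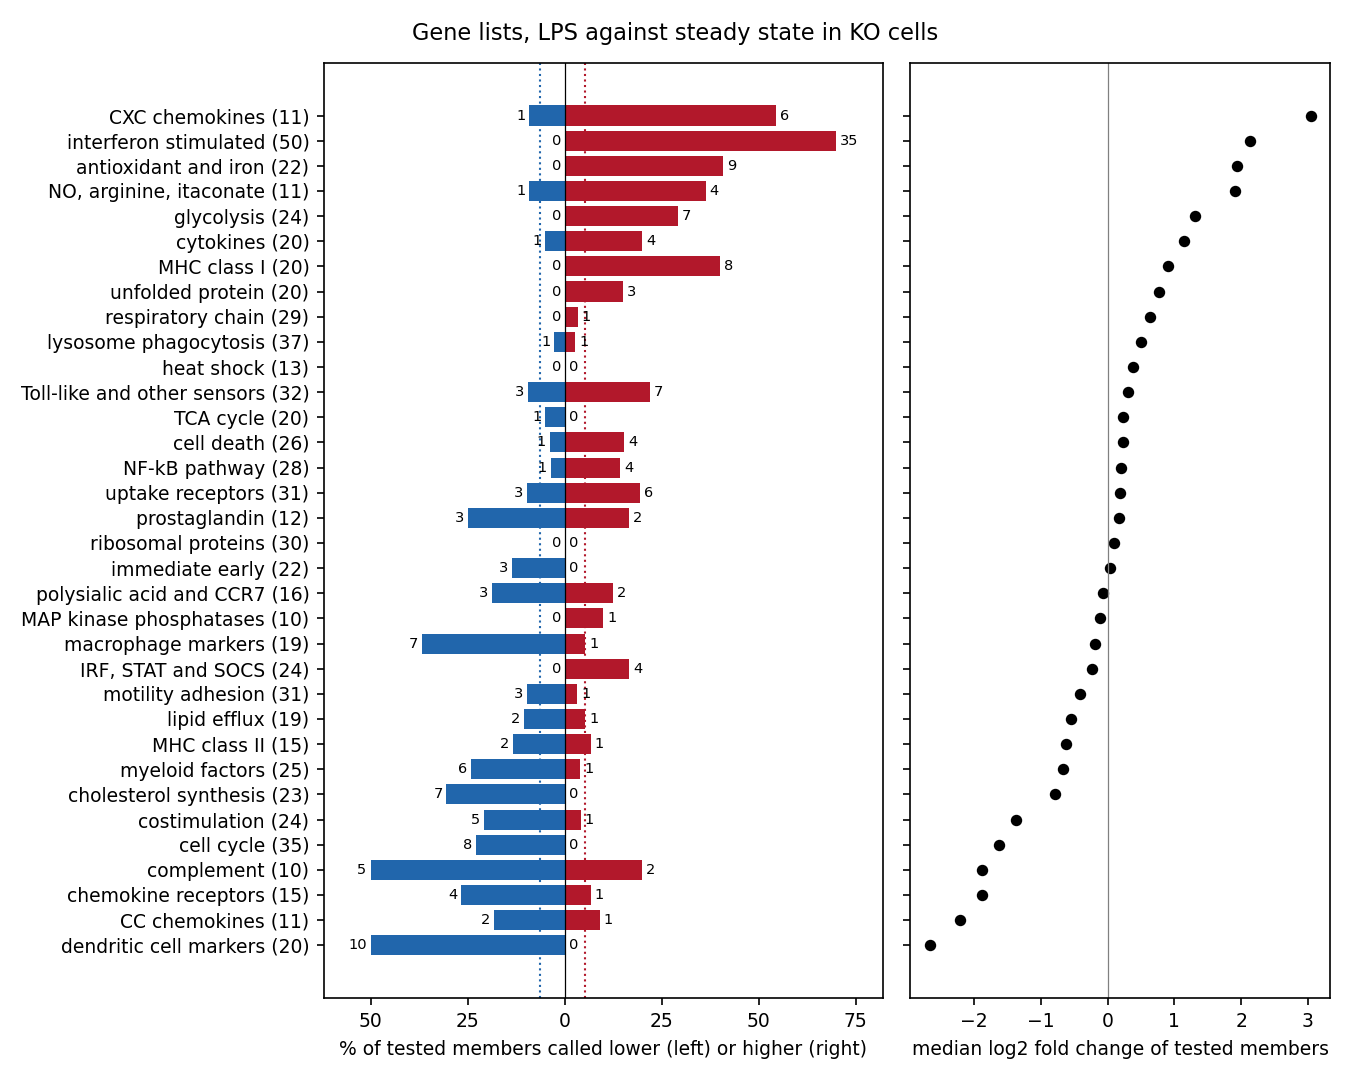
The left panel gives, for each list drawn, the percentage of tested members called lower (blue, left) or higher (red, right) with LPS in KO cells. The number of tested members is in parentheses, and dotted lines mark the shares over all genes tested, 6.46% and 5.3%. Lists of markers of cell types other than dendritic cells and macrophages are not drawn. The right panel gives the median log2 fold change of the tested members. Among the lists drawn it runs from -2.67 for the dendritic cell markers to 3.04 for the CXC chemokines.

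Genes that sense microbes moved in both directions. Of 32 genes for toll-like receptors, their adaptors and other sensors, 7 rose and 3 fell, with a median log2 fold change of 0.31. Cd14, the co-receptor that loads LPS onto toll-like receptor 4, went from 187 and 162 to 1199 and 1552 CPM (2.98 ± 0.52, adjusted p = 0.0164). Ticam2, which encodes the TRAM adaptor of the interferon arm, went from 58.01 and 39.6 to 149 and 172 CPM (1.72 ± 0.26, adjusted p = 0.0116). Zbp1 and Ddx58 encode sensors of nucleic acid in the cytosol, and both are interferon-inducible. Zbp1 went from 17.4 and 23.6 to 163 and 159 CPM (2.97 ± 0.33, adjusted p = 0.00447), and Ddx58, which encodes RIG-I, from 39.01 and 43.8 to 308 and 158 CPM (2.49 ± 0.45, adjusted p = 0.0181). The other 3 risers were Tlr2, Tlr6 and Irak2, at 1.23, 1.56 and 2.18 on the log2 scale. The 3 that fell encode the toll-like receptors for flagellin and profilin. Tlr12 went from 26.1 and 18.2 to 0.678 and 0.153 CPM (-5.61 ± 1.05, adjusted p = 0.0205). Tlr11 had 167 reads at steady state and 1 with LPS, a ratio of 106 with a 95% counting interval of 18.8 to 4220, and Tlr5 had 85 and 3 reads, a ratio of 18.02 (5.96 to 89.1). Tlr4 itself did not pass the test (69.6 and 65.00 against 90.8 and 33.7 CPM, -0.11, adjusted p = 0.873), named after its value was seen because it is the receptor for LPS. Leaving out 1 library gave 0 (without KO ST1) to 11 (without WT LPS1 and WT LPS2) members called higher. None of the 10 calls named here remained in all 8 fits with 1 library left out. Calls lost numbered 10 without KO ST1, 9 without KO ST2, 8 without KO LPS2, 7 without KO LPS1, 5 without WT ST2 and 5 without WT ST1, with an adjusted p of up to 0.214 and log2 fold changes within 2.76 of those given.

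The NF-kB pathway list, which holds the transcription factors, their inhibitors and feedback genes, had 4 of 28 members called higher and 1 called lower, with a median of 0.20. Irak3, a kinase-dead brake on toll-like receptor signalling, went from 30.7 and 29.8 to 287 and 216 CPM (3.06 ± 0.25, adjusted p = 0.00297). Nfkbiz, the nuclear inhibitor family member that is needed for secondary response genes, went from 10.9 and 19.7 to 53.1 and 56.2 CPM (1.84 ± 0.41, adjusted p = 0.0329). Ikbke, a kinase of the interferon arm, went from 117 and 105 to 484 and 274 CPM (1.77 ± 0.36, adjusted p = 0.0244). Zc3h12a, an RNase that degrades cytokine messages, rose by 1.91 on the log2 scale. Relb, the subunit of the alternative pathway that marks mature dendritic cells, fell from 381 and 355 to 107 and 131 CPM (-1.63 ± 0.34, adjusted p = 0.0282). The classical inhibitor gene Nfkbia did not pass the test, at 361 and 359 against 351 and 482 CPM. Without 1 library the count called higher ran from 1 (without KO ST1 and KO ST2) to 7 (without WT LPS1 and WT LPS2). Single-library dependence was absent for 1 of the 5 genes called here (Irak3). Calls lost numbered 4 without KO ST2, 4 without KO ST1, 3 without WT ST2, 3 without WT ST1, 3 without KO LPS2 and 3 without KO LPS1, with an adjusted p of up to 0.210 and log2 fold changes within 0.73 of those given.

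Among 22 tested immediate early genes, which respond within minutes to many stimuli, 3 fell and none rose in edgeR (2 at an unadjusted p under 0.05, 2 in DESeq2). Egr2 went from 136 and 102 to 41.8 and 24.3 CPM (-1.85 ± 0.38, adjusted p = 0.0266), Nr4a3 from 71.97 and 74.3 to 16.8 and 6.28 CPM (-2.65 ± 0.56, adjusted p = 0.0284) and Btg2 from 96.2 and 102 to 47.3 and 45.5 CPM (-1.10 ± 0.21, adjusted p = 0.0216). These encode transcription factors and an antiproliferative protein. Of 10 genes for phosphatases that switch off MAP kinases, only Dusp4 passed the test in edgeR (2 did in DESeq2), going from 3.18 and 3.19 to 24.5 and 79.6 CPM (4.02 ± 0.61, adjusted p = 0.0112). Of 24 genes for interferon regulatory factors, STATs, SOCS proteins and interferon receptors, 4 rose and none fell in edgeR (5 at an unadjusted p under 0.05, 3 in DESeq2). Irf7, the factor that amplifies interferon production, went from 12.6 and 19.04 to 1253 and 2262 CPM (6.80 ± 0.61, adjusted p = 0.00297). Socs3 and Socs1 encode feedback inhibitors of cytokine receptors. Socs3 went from 15.98 and 19.7 to 189.9 and 207 CPM (3.47 ± 0.29, adjusted p = 0.00297), and Socs1 from 21.5 and 26.3 to 74.9 and 126 CPM (2.07 ± 0.30, adjusted p = 0.0102). Ifnar2, a chain of the type I interferon receptor, went from 88.6 and 116 to 419 and 497 CPM (2.16 ± 0.40, adjusted p = 0.0191). The 4 LPS-raised genes of this list had no LPS library near the steady-state range. Of the 8 called genes named here, 2 (Irf7 and Socs3) stayed called without each of the 8 libraries in turn. Calls lost numbered 6 without KO ST2, 6 without KO ST1, 4 without KO LPS2, 2 without WT ST2, 2 without WT ST1 and 1 without KO LPS1, with an adjusted p of up to 0.172 and log2 fold changes within 1.11 of those given.

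Most interferon-stimulated genes rose. Of 50 members, all tested, 35 rose and none fell in edgeR (1 at an unadjusted p under 0.05, 0 in DESeq2), with a median log2 fold change of 2.13, and in 41 both LPS libraries were above both steady-state libraries (34.4% of all genes tested). Rsad2, the antiviral enzyme viperin, went from 5.97 and 12.7 to 672 and 1427 CPM (6.82 ± 0.63, adjusted p = 0.00297). Ifit1, which binds foreign RNA caps and whose promoter is printed above, went from 3.41 and 5.05 to 256 and 185 CPM (5.70 ± 0.50, adjusted p = 0.00297). Oasl1, a member of the oligoadenylate synthetase family, went from 3.26 and 3.72 to 204 and 134 CPM (5.60 ± 0.39, adjusted p = 0.00199). Rtp4, a chaperone-like transmembrane protein, went from 10.4 and 11.4 to 191 and 128 CPM (3.87 ± 0.36, adjusted p = 0.00297). Lgals3bp, a secreted glycoprotein with the largest CPM among the risers, went from 349 and 279.8 to 1527 and 2000.2 CPM (2.49 ± 0.35, adjusted p = 0.00903). In all 5 genes the lower LPS library was several times the higher steady-state library. The calls of 4 of these 5 genes (Rsad2, Ifit1, Oasl1 and Rtp4) did not depend on any 1 of the 8 libraries. Calls lost numbered 1 without KO ST2 and 1 without KO ST1, with an adjusted p of up to 0.0999 and log2 fold changes within 0.66 of those given.

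Among the rest of this list, log2 fold changes of called genes ran from 1.34 (Herc6) to 5.83 (Ifit3), both named for their place at the ends. The ubiquitin-like modifier gene Isg15 (5.50), the oligoadenylate synthetase gene Oas3 (4.54) and the tetherin gene Bst2 (3.48) lay between them, chosen after their values were seen. The 15 members that did not pass the test included Samhd1, a dNTP hydrolase, at 876 and 725 against 584 and 283 CPM (-0.88, adjusted p = 0.229). Negative log2 fold changes were found in 6 of the 50, the lowest in Mx1 (-1.50, adjusted p = 0.351). The number called higher without 1 library ran from 10 (without KO ST1) to 38 (without WT LPS1 and WT LPS2). With each library left out in turn, 2 of the 5 calls (Isg15 and Oas3) remained in all 8 fits. Calls lost numbered 3 without KO ST1, 2 without KO ST2, 1 without WT ST2, 1 without WT ST1, 1 without KO LPS2 and 1 without KO LPS1, with an adjusted p of up to 0.256 and log2 fold changes within 0.45 of those given.

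**Figure D4:**
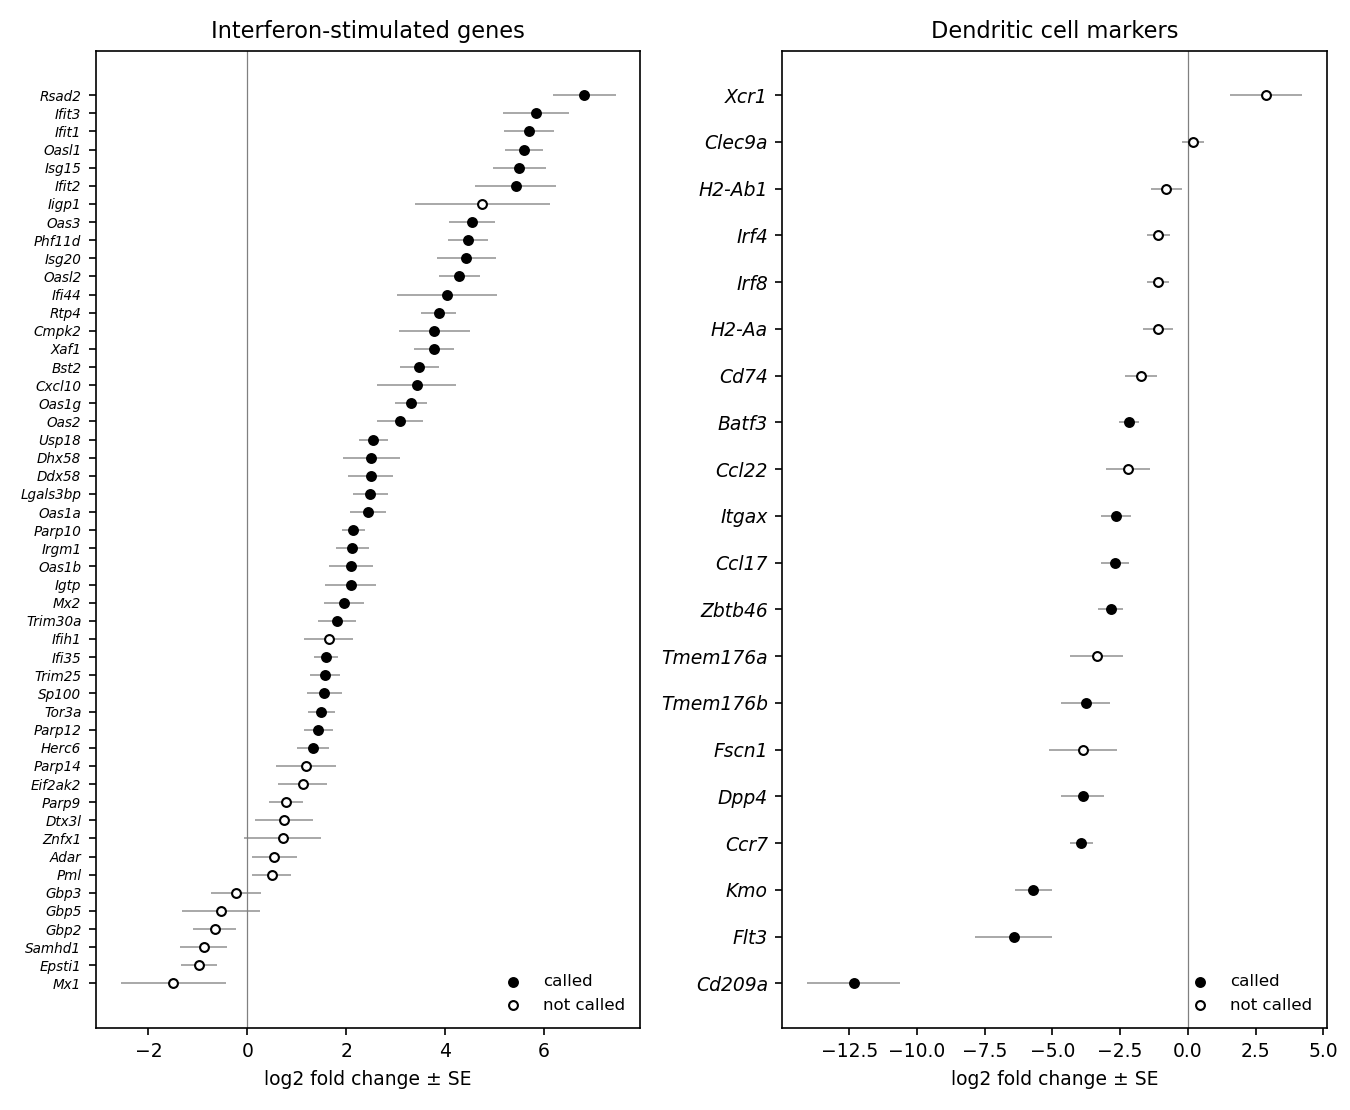
Points give the log2 fold change of LPS over steady state in KO cells with its SE for each interferon-stimulated gene (left, 50 genes) and each dendritic cell marker (right, 20 genes), filled where called. The 35 filled points on the left are all above 0 and the 10 on the right all below, and the value of Cd209a at -12.34 is fitted to 0 LPS reads and is no bound.

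Cytokine genes rose in part. Of 20 tested, 4 rose and 1 fell, with a median of 1.15. Il12a, which encodes the p35 chain of interleukin 12, had 1 read in the steady-state libraries and 731 in the LPS libraries, a ratio of 1149 with a 95% counting interval of 205.6 to 45460. Its level with LPS was 41.8 and 55.3 CPM. Il1a went from 13.1 and 10.01 to 288 and 449.7 CPM (4.99 ± 0.46, adjusted p = 0.00297) and Il1b from 14.7 and 21.2 to 346 and 359 CPM (4.30 ± 0.46, adjusted p = 0.00417). Both encode interleukin 1, which spreads inflammation to other cells. Tnfsf15, a T cell-stimulating member of the TNF family, went from 1.63 and 3.28 to 96.02 and 55.6 CPM (4.95 ± 0.71, adjusted p = 0.00975). Il15, which sustains natural killer and memory T cells, fell from 40.6 and 42.1 to 20.3 and 14.9 CPM (-1.23 ± 0.25, adjusted p = 0.0255). Il1rn, the secreted interleukin 1 antagonist, was the most abundant of the list and did not pass the test (255 and 413 against 1291 and 2643 CPM, 2.56, adjusted p = 0.0525). Named after their values were seen, 3 classic LPS-induced cytokine genes were also uncalled. Il6 was at 1.48 (adjusted p = 0.0510), Tnf at 1.95 (adjusted p = 0.0640) and Il12b, which encodes the p40 chain, at 0.11 (adjusted p = 0.889). The interferon beta gene Ifnb1 had 3 reads in each group and was not tested. Without 1 library the count of cytokines called higher ran from 3 (without KO ST1 and KO ST2) to 8 (without WT LPS1 and WT LPS2). Among these 5 calls, 3 (Il1a, Il1b and Il12a) remained whichever library was left out. Calls lost numbered 2 without KO ST2, 2 without KO ST1, 1 without WT ST2, 1 without WT ST1 and 1 without KO LPS2, with an adjusted p of up to 0.172 and log2 fold changes within 2.21 of those given.

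CXC chemokines, which mostly attract neutrophils or T cells, rose in part, and so did 1 CC chemokine. Of 11 CXC genes tested, 6 rose and 1 fell (median 3.04), and of 11 CC genes 1 rose and 2 fell (median -2.21). The difference between the 2 lists was not tested. Cxcl3, a neutrophil attractant with a kB-like motif in its printed promoter, went from 2.64 and 11.4 to 353 and 987 CPM (6.58 ± 0.89, adjusted p = 0.00773). Cxcl2 and Cxcl1 act on the same receptor. Cxcl2 went from 2.33 and 6.29 to 121 and 877 CPM (6.86 ± 1.43, adjusted p = 0.0271), and Cxcl1 from 1.86 and 6.995 to 50.2 and 663 CPM (6.34 ± 1.56, adjusted p = 0.0428). All 3 were highest in KO LPS2, most of all Cxcl1. The T cell attractants were low: Cxcl9 had 0 reads at steady state and 31 with LPS and was at least 16.3-fold higher (floor of 3 reads over the group), and Cxcl10 went from 0.155 and 1.06 to 6.10 and 6.89 CPM (3.43). Cxcl16, a membrane-bound chemokine, went from 399 and 438 to 771 and 1575 CPM (1.49 ± 0.38, adjusted p = 0.0478). Cxcl14 fell from 96.9 and 48.6 to 16.6 and 5.82 CPM (-2.69 ± 0.56, adjusted p = 0.0273). Among CC chemokines Ccl5, an attractant of T cells and monocytes, went from 2331 and 2218 to 10405 and 21220.2 CPM (2.80 ± 0.56, adjusted p = 0.0243). Ccl17, a dendritic cell product that attracts T cells through CCR4, fell from 204 and 197 to 37.2 and 25.3 CPM (-2.68 ± 0.52, adjusted p = 0.0226), and Ccl6 from 2677 and 1954 to 470.2 and 238 CPM (-2.71). The count of CXC genes called higher without 1 library ran from 1 (without KO ST1, KO ST2 and KO LPS2) to 7 (without WT LPS1 and WT LPS2). Leaving out 1 library at a time left 1 of the 10 calls (Cxcl3) in place throughout. Calls lost numbered 9 without KO ST2, 9 without KO ST1, 9 without KO LPS2, 8 without WT ST2, 8 without WT ST1 and 4 without KO LPS1, with an adjusted p of up to 0.261 and log2 fold changes within 2.85 of those given.

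Genes for making nitric oxide and itaconate were among those that rose. Of 11 genes tested on nitric oxide, arginine, tryptophan and itaconate metabolism, 4 rose and 1 fell. Besides Nos2 and Irg1 above, Gch1, which makes the tetrahydrobiopterin cofactor of nitric oxide synthase, went from 11.4 and 12.7 to 54.8 and 43.5 CPM (2.03 ± 0.25, adjusted p = 0.00566). Slc7a2, a carrier of arginine, went from 158 and 83.1 to 1085 and 1187 CPM (3.24 ± 0.52, adjusted p = 0.0130). Kmo, which degrades kynurenine, fell from 24.6 and 50.4 to 0.791 and 0.612 CPM (-5.70 ± 0.68, adjusted p = 0.00554). The arginase gene Arg1 did not pass the test, with 114 and 6.55 CPM in the steady-state libraries and 134 and 82.8 with LPS, and those ranges overlapped. Prostaglandin and leukotriene genes moved in both directions, with 2 of 12 called higher and 3 lower. Ptgs2, which encodes the inducible cyclooxygenase, went from 1.01 and 1.24 to 39.2 and 176 CPM (6.57 ± 1.05, adjusted p = 0.0130). Ptges, the prostaglandin E synthase downstream of it, went from 4.34 and 2.48 to 152 and 477 CPM (6.52 ± 0.87, adjusted p = 0.00728). The lipoxygenase genes fell: Alox15 had 560 reads at steady state and 2 with LPS, a ratio of 178 with a 95% counting interval of 49.1 to 1474, and Alox5 went from 86.9 and 176 to 26.4 and 6.12 CPM (-3.003 ± 0.68, adjusted p = 0.0336). Tbxas1, the thromboxane synthase, fell from 357 and 319 to 173 and 120.2 CPM (-1.21 ± 0.29, adjusted p = 0.0399). Single-library dependence was absent for 2 of the 8 genes called here (Kmo and Alox15). Calls lost numbered 6 without KO ST2, 6 without KO ST1, 3 without KO LPS2, 2 without WT ST2, 2 without WT ST1 and 1 without KO LPS1, with an adjusted p of up to 0.214 and log2 fold changes within 1.48 of those given.

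Complement genes also moved in both directions. Of 10 tested, 2 rose and 5 fell, with a median of -1.88. C3, the central component, went from 324 and 240.1 to 2286 and 1678 CPM (2.81 ± 0.35, adjusted p = 0.00608), and Cfb, the factor B of the alternative pathway, from 22.8 and 20.3 to 935 and 943 CPM (5.45 ± 0.44, adjusted p = 0.00246). The 3 chains of C1q, which starts the classical pathway, fell. C1qa went from 328 and 438 to 48.7 and 20.7 CPM (-3.46 ± 0.56, adjusted p = 0.0134), C1qc from 492 and 505 to 75.7 and 21.4 CPM (-3.36 ± 0.68, adjusted p = 0.0246) and C1qb from 855 and 508 to 107 and 21.9 CPM (-3.40 ± 0.83, adjusted p = 0.0418). For each chain the lowest library was KO LPS2. Cfp, which encodes properdin, fell too, at -1.78 on the log2 scale. With 1 library left out, 0 (without KO ST1, KO ST2 and KO LPS2) to 6 (without WT LPS1 and WT LPS2) members were called lower. Of the 6 called genes named here, 1 (Cfb) stayed called without each of the 8 libraries in turn. Calls lost numbered 5 without KO ST2, 5 without KO ST1, 4 without KO LPS2, 2 without WT ST2, 2 without WT ST1 and 1 without KO LPS1, with an adjusted p of up to 0.171 and log2 fold changes within 1.57 of those given.

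MHC class I genes, which show peptides from within the cell to CD8 T cells, rose in part. MHC class II genes moved in both directions (6.67% called higher and 13.3% lower). The difference between the 2 lists was not tested. Of 20 class I genes tested, 8 rose and none fell in edgeR (0 at an unadjusted p under 0.05, 0 in DESeq2) (median 0.91). B2m, the light chain, went from 2209 and 2104 to 9226 and 13593 CPM (2.40 ± 0.45, adjusted p = 0.0208). The heavy chain genes share sequence, so their reads are uncertain between copies. H2-K1 went from 1227 and 1114 to 4721 and 7047 CPM (2.33 ± 0.40, adjusted p = 0.0151), H2-Q4 from 244 and 213 to 736 and 1368 CPM (2.20 ± 0.38, adjusted p = 0.0158) and H2-M3 from 38.9 and 36.6 to 101 and 141 CPM (1.68 ± 0.27, adjusted p = 0.0130). Tap1, a subunit of the peptide transporter, went from 132 and 117 to 456 and 456 CPM (1.88 ± 0.24, adjusted p = 0.00655). Of 15 class II genes, 1 rose and 2 fell (median -0.62). Ciita, the master regulator of class II transcription, fell from 235 and 267 to 43.3 and 21.1 CPM (-2.96 ± 0.60, adjusted p = 0.0257), and H2-DMb2, a chain of the peptide editor H2-DM, from 78.2 and 86.3 to 18.2 and 19.1 CPM (-2.14 ± 0.26, adjusted p = 0.00566). March1, the ubiquitin ligase that removes class II molecules and CD86 from the surface, rose from 71.8 and 88.3 to 322 and 176 CPM (1.64 ± 0.33, adjusted p = 0.0241). The invariant chain gene Cd74 did not pass the test, at 10798 and 10146 against 1835 and 4457 CPM (-1.73, adjusted p = 0.0975), although both LPS libraries were the lower ones. Class I genes called higher without 1 library numbered 0 (without KO ST1 and KO ST2) to 11 (without WT LPS1 and WT LPS2). Each of these 8 calls was lost without at least 1 of the 8 libraries. Calls lost numbered 8 without KO ST2, 7 without KO ST1, 5 without KO LPS2, 3 without WT ST2, 3 without WT ST1 and 2 without KO LPS1, with an adjusted p of up to 0.177 and log2 fold changes within 0.61 of those given.

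Genes of costimulation and maturation went down more often than up, with 1 of 24 called higher, 5 called lower and a median of -1.37. Cd274, which encodes the inhibitory ligand PD-L1, went from 529 and 482 to 1955 and 4059.7 CPM (2.57 ± 0.57, adjusted p = 0.0324). Cd83, a maturation marker that holds class II and CD86 at the surface, fell from 511 and 523 to 116 and 45.5 CPM (-2.68 ± 0.60, adjusted p = 0.0337). Havcr2, which encodes the receptor TIM-3, fell from 7.37 and 14.8 to 1.24 and 2.14 CPM (-2.72 ± 0.61, adjusted p = 0.0326). Tmem123, a membrane mucin, fell from 2732 and 3024 to 616 and 274 CPM (-2.69 ± 0.62, adjusted p = 0.0354), and Ccr7 and Relb complete the 5. The costimulatory ligand genes were named after their values were seen. Cd86 stood at 67.2 and 82.1 CPM without and 78.8 and 64.8 with LPS (adjusted p = 0.894), Cd80 at 56.4 and 69.1 and 70.3 and 24.3 (adjusted p = 0.615) and Cd40 at 30.9 and 37.99 and 38.1 and 48.5 (adjusted p = 0.616). The steady-state and LPS libraries of Cd80 and Cd86 overlapped, and those of Cd40 were separated by less than 1 CPM. Members called lower without 1 library numbered 1 (without KO ST1, KO ST2, KO LPS2, WT ST1 and WT ST2) to 12 (without WT LPS1 and WT LPS2). None of the 4 calls named here remained in all 8 fits with 1 library left out. Calls lost numbered 4 without WT ST2, 4 without WT ST1, 4 without KO ST2, 4 without KO ST1, 4 without KO LPS2 and 2 without KO LPS1, with an adjusted p of up to 0.196 and log2 fold changes within 0.83 of those given.

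Receptors of antigen uptake moved in both directions. Of 31 tested, 6 rose and 3 fell, with a median of 0.19. Clec4e and Clec4d encode the paired C-type lectins Mincle and MCL, which bind mycobacterial glycolipid. Clec4e went from 8.30 and 13.5 to 995 and 1437 CPM (6.80 ± 0.52, adjusted p = 0.00236) and Clec4d from 57.3 and 118 to 1281 and 2403 CPM (4.39 ± 0.55, adjusted p = 0.00628). Marco is described above, and the other 3 risers were Fcer1g, the signalling chain these lectins use (2.04), Clec4n, which encodes Dectin-2 (1.75), and Clec4a3 (1.75). Cd209a, the mouse relative of DC-SIGN, had 1369 reads at steady state and 0 with LPS and was at least 290-fold lower. Its steady-state libraries differed, at 16.2 and 103 CPM. Mrc1 fell as given above, and Cd163, a haemoglobin scavenger receptor, fell too, at -3.77 on the log2 scale. Of 37 lysosomal and phagosomal genes only Ctsk and Gusb passed the test in edgeR, and DESeq2 called 8 higher and 1 lower. Ctsk, the protease cathepsin K, went from 10.2 and 5.40 to 97.7 and 142 CPM (3.94 ± 0.50, adjusted p = 0.00641), and Gusb, a glucuronidase, from 394 and 354 to 135 and 111 CPM (-1.60 ± 0.33, adjusted p = 0.0252). Without 1 library the uptake receptors called higher ran from 1 (without KO ST1) to 8 (without WT LPS1 and WT LPS2). Among these 9 calls, 1 (Clec4e) remained whichever library was left out. Calls lost numbered 6 without KO ST2, 6 without KO ST1, 6 without KO LPS2, 3 without WT ST2, 3 without WT ST1 and 2 without KO LPS1, with an adjusted p of up to 0.216 and log2 fold changes within 4.54 of those given.

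Antioxidant, haem and iron genes rose in part. Of 22 tested, 9 rose and none fell in edgeR (2 at an unadjusted p under 0.05, 0 in DESeq2), with a median of 1.95. Sod2, the mitochondrial superoxide dismutase, went from 58.8 and 52.7 to 1232 and 1362 CPM (4.54 ± 0.31, adjusted p = 0.00199). Hmox1, which degrades haem, went from 225 and 281 to 3980.2 and 8594 CPM (4.63 ± 0.61, adjusted p = 0.00690). Slc11a1, which pumps iron and manganese out of the phagosome, went from 66.1 and 91.6 to 539 and 976 CPM (3.26 ± 0.41, adjusted p = 0.00608). Prdx1, a peroxidase, went from 491 and 586 to 2038 and 3092 CPM (2.25 ± 0.34, adjusted p = 0.0112). The other 5 risers (Prdx5, Gclm, Nqo1, Txnrd1 and Srxn1, enzymes of peroxide, glutathione, quinone and thioredoxin metabolism) had log2 fold changes of 1.75 to 2.92. The ferritin genes were the most abundant of the list and fell just short of the threshold. Fth1 went from 8327 and 7964 to 36714 and 67984 CPM (2.68, adjusted p = 0.0513) and Ftl1 from 2380.5 and 2202 to 6717 and 13546 CPM (2.14, adjusted p = 0.0539), and both have many pseudogene copies that make the assignment of reads uncertain. The number called higher without 1 library ran from 1 (without KO ST1 and KO ST2) to 15 (without WT LPS1 and WT LPS2). Leaving out 1 library at a time left 1 of the 9 calls (Sod2) in place throughout. Calls lost numbered 8 without KO ST2, 8 without KO ST1, 6 without KO LPS2, 3 without WT ST1 and 2 without WT ST2, with an adjusted p of up to 0.212 and log2 fold changes within 0.77 of those given.

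Glycolytic genes rose in part, and few genes of mitochondrial respiration passed the test in edgeR. The difference between these lists was not tested. Of 24 genes of glycolysis and its control, 7 rose and none fell in edgeR (0 at an unadjusted p under 0.05, 0 in DESeq2) (median 1.30). Hk2, the inducible hexokinase, went from 122 and 108 to 384 and 400.2 CPM (1.77 ± 0.30, adjusted p = 0.0150). Pfkl, the liver-type phosphofructokinase, went from 159.8 and 103 to 396 and 394 CPM (1.59 ± 0.31, adjusted p = 0.0229). Hif1a, the hypoxia-inducible factor that drives glycolytic genes, went from 375 and 294 to 1000.4 and 846 CPM (1.46 ± 0.29, adjusted p = 0.0229), and Tpi1, triosephosphate isomerase, from 162 and 105 to 583 and 1214 CPM (2.75 ± 0.61, adjusted p = 0.0328). The other 3 were the glucose carrier gene Slc2a1 (2.64), the lactate carrier gene Slc16a3 (1.54) and Pgam1 (1.14). Of 29 respiratory chain genes 1 rose in edgeR, Cox7a2 (1.59), with a list median of 0.64. DESeq2 called 5 higher, and 13 were higher at an unadjusted p under 0.05 in edgeR. In 22 of the 29 both LPS libraries were above both steady-state libraries (34.4% of all genes tested). The same was true of 18 of the 24 glycolysis genes, of which DESeq2 called 15 higher. Of 20 citrate cycle genes 1 fell, Suclg2 (-1.97), with a list median of 0.23. Glycolytic genes called higher without 1 library ran from 0 (without KO ST1, KO ST2 and KO LPS2) to 14 (without WT LPS1 and WT LPS2). Each of these 9 calls was lost without at least 1 of the 8 libraries. Calls lost numbered 9 without KO ST2, 9 without KO ST1, 9 without KO LPS2, 8 without WT ST2, 8 without WT ST1 and 7 without KO LPS1, with an adjusted p of up to 0.276 and log2 fold changes within 0.65 of those given.

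Genes of protein folding stress rose in part (15% called higher, against 5.3% of all genes tested). Of 20 genes of the unfolded protein and integrated stress response, 3 rose and none fell in edgeR (0 at an unadjusted p under 0.05, 0 in DESeq2) (median 0.77). Trib3, a pseudokinase, went from 1.86 and 1.33 to 34.6 and 65.7 CPM (4.96 ± 0.56, adjusted p = 0.00485). Ddit3, which encodes the factor CHOP, went from 23.7 and 15.7 to 139 and 472 CPM (3.95 ± 0.86, adjusted p = 0.0309), and Asns, asparagine synthetase, from 6.67 and 7.97 to 24.9 and 63.7 CPM (2.59 ± 0.56, adjusted p = 0.0303). In all 3 KO LPS2 was above KO LPS1. The chaperone gene Hspa5 did not pass the test and shows the same order, at 807 and 708 CPM against 1320.4 and 4818. None of 13 heat shock genes (median 0.38) and none of 30 ribosomal protein genes (median 0.09) were called, in edgeR at an adjusted p under 0.05. DESeq2 called 2 heat shock genes and 0 ribosomal protein genes, and at an unadjusted p under 0.05 edgeR had 4 and 1. Of 26 cell death genes 4 rose and 1 fell. The risers were the necroptosis effector Mlkl (1.90), the inflammatory caspase genes Casp4 (1.88) and Casp1 (1.55) and the TNF receptor gene Tnfrsf1b (2.18). Pmaip1, which encodes the BH3-only protein NOXA, fell, at -1.71 on the log2 scale. None of the 8 calls named here remained in all 8 fits with 1 library left out. Calls lost numbered 8 without KO ST2, 7 without KO ST1, 7 without KO LPS2, 3 without WT ST2, 3 without WT ST1 and 1 without KO LPS1, with an adjusted p of up to 0.187 and log2 fold changes within 1.16 of those given.

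Cholesterol synthesis genes fell in part. Of 23 tested, 7 fell and none rose in edgeR (0 at an unadjusted p under 0.05, 0 in DESeq2), with a median of -0.78, and in 20 both LPS libraries were below both steady-state libraries (38.2% of all genes tested). Idi1, isopentenyl diphosphate isomerase, fell from 6.90 and 6.38 to 0.791 and 0.153 CPM (-3.70 ± 0.62, adjusted p = 0.0147). Cyp51, lanosterol demethylase, fell from 69.3 and 69.8 to 23.5 and 21.1 CPM (-1.64 ± 0.32, adjusted p = 0.0228). Srebf2, the factor that drives this pathway, fell from 246 and 271 to 108 and 124 CPM (-1.16 ± 0.25, adjusted p = 0.0286). Hmgcs1 and Dhcr7 were at -0.94 and -1.35. Of 19 genes of lipid transport and storage, 1 rose and 2 fell. Apoe, the lipoprotein of macrophages and dendritic cells, fell from 6597 and 6303 to 947 and 372 CPM (-3.29 ± 0.55, adjusted p = 0.0149), and Fasn, fatty acid synthase, from 194 and 175 to 45.2 and 30.2 CPM (-2.29 ± 0.42, adjusted p = 0.0199). Nr1h3, which encodes the oxysterol receptor LXR alpha, rose from 2.64 and 2.66 to 11.7 and 18.5 CPM (2.51). With 1 library left out, cholesterol synthesis genes called lower numbered 1 (without KO ST1, KO ST2 and KO LPS2) to 9 (without WT LPS1 and WT LPS2). Each of these 8 calls was lost without at least 1 of the 8 libraries. Calls lost numbered 8 without KO ST2, 8 without KO ST1, 8 without KO LPS2, 6 without WT ST2, 6 without WT ST1 and 5 without KO LPS1, with an adjusted p of up to 0.300 and log2 fold changes within 1.64 of those given.

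Cell cycle genes fell in part. Of 35 tested, 8 fell and none rose in edgeR (1 at an unadjusted p under 0.05, 1 in DESeq2), with a median of -1.62. In 28 of them both LPS libraries were below both steady-state libraries (38.2% of all genes tested). Mcm5, Mcm7 and Mcm3 encode subunits of the replicative helicase. Mcm5 went from 29.2 and 44.2 to 4.52 and 2.60 CPM (-3.34 ± 0.44, adjusted p = 0.00670), Mcm7 from 14.1 and 15.6 to 3.61 and 4.44 CPM (-1.88 ± 0.31, adjusted p = 0.0140) and Mcm3 from 55.7 and 59.9 to 16.8 and 19.1 CPM (-1.68 ± 0.29, adjusted p = 0.0156). Aurka, whose promoter is printed above, went from 4.65 and 7.26 to 0.678 and 0.919 CPM (-2.90 ± 0.58, adjusted p = 0.0245). Ccnb2 had 137 reads at steady state and 3 with LPS, a ratio of 29.1 with a 95% counting interval of 9.73 to 143. The steady-state libraries of Ccnb2 were unequal, at 2.56 and 9.21 CPM. This order held for much of the list, with a median log2 difference of KO ST2 minus KO ST1 of 0.83. The summed level of the list was 826.2 CPM in KO ST1, 1218.5 in KO ST2, 1057 in KO LPS1 and 973.1 in KO LPS2. The LPS sums thus lay between the steady-state sums. The most abundant member, Cdkn1a, was not called and had a mean of 298 CPM without and 517 with LPS. The other 3 called lower were Cdc20 (-2.78), Ccnd1 (-2.30) and Birc5 (-3.03). The proliferation marker Mki67 did not follow them: it stood at 32.5 and 77.8 CPM without and 161 and 97.8 with LPS (adjusted p = 0.254), named after its value was seen. Members called lower without 1 library numbered 0 (without KO ST2 and KO LPS2) to 19 (without WT LPS1 and WT LPS2). None of the 8 calls named here remained in all 8 fits with 1 library left out. Calls lost numbered 8 without KO ST2, 8 without KO LPS2, 6 without KO ST1, 6 without KO LPS1, 5 without WT ST2 and 5 without WT ST1, with an adjusted p of up to 0.265 and log2 fold changes within 1.21 of those given.

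Genes that mark dendritic cells fell in part. Of 20 dendritic cell markers, all tested, 10 fell and none rose in edgeR (0 at an unadjusted p under 0.05, 0 in DESeq2), with a median of -2.67. The summed level of the 20 went from 30080 and 29398 CPM at steady state to 7176 and 10477 with LPS. The largest parts of that sum were uncalled members, Cd74 (mean 10472 CPM without and 3146 with LPS) and H2-Aa (4408 and 2045). None of the 20 was at 0 in all 4 libraries, and Cd209a was at 0 with LPS. Itgax fell from 619 and 384 to 80.3 and 78.8 CPM (-2.66 ± 0.54, adjusted p = 0.0255). Zbtb46, a transcription factor of classical dendritic cells, fell from 68.2 and 55.3 to 11.97 and 4.90 CPM (-2.85 ± 0.47, adjusted p = 0.0143). Flt3, the receptor for the growth factor of the lineage, fell from 33.4 and 35.2 to 0.452 and 0.306 CPM (-6.43 ± 1.43, adjusted p = 0.0324). Batf3, a factor of cross-presenting dendritic cells, fell from 69.6 and 53.7 to 18.1 and 9.03 CPM (-2.18 ± 0.37, adjusted p = 0.0150). Dpp4, which encodes CD26, fell from 60.9 and 83.7 to 8.13 and 1.38 CPM (-3.89 ± 0.78, adjusted p = 0.0246), and Tmem176b, an intracellular channel, from 638 and 626 to 73.1 and 19.3 CPM (-3.77 ± 0.90, adjusted p = 0.0400). Kmo, Cd209a, Ccl17 and Ccr7, given elsewhere, complete the 10. Clec9a and Xcr1, which mark cross-presenting dendritic cells, were low throughout, with at most 9.94 and 1.68 CPM in a KO library. Markers called lower without 1 library numbered 2 (without KO LPS2) to 12 (without WT LPS1 and WT LPS2). Each of these 6 calls was lost without at least 1 of the 8 libraries. Calls lost numbered 6 without KO ST2, 6 without KO ST1, 6 without KO LPS2, 4 without WT ST2, 4 without WT ST1 and 3 without KO LPS1, with an adjusted p of up to 0.192 and log2 fold changes within 1.82 of those given.

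Ccr7, the receptor for CCL21 that leads dendritic cells to lymph nodes, was abundant at steady state and fell with LPS. It stood at 1914 and 2124 CPM in KO ST1 and KO ST2 and at 159 and 106 CPM in KO LPS1 and KO LPS2 (chr11:99144199-99155077, log2 fold change -3.93 ± 0.42, adjusted p = 0.00417). Both LPS libraries were far below both steady-state libraries. The polysialyltransferase gene St8sia4, whose product adds polysialic acid, did not pass the test. It stood at 201 and 214 CPM without and 287 and 134 CPM with LPS (chr1:95587682-95667717, 0.02 ± 0.58, adjusted p = 0.985), and the LPS libraries lay on both sides of the steady-state libraries. Nrp2, a carrier of polysialic acid, stood at 406 and 272 and 728 and 623 CPM (chr1:62703317-62818692, 0.996 ± 0.51, adjusted p = 0.214), and Ccl21a had 0 reads in every KO library. Of 16 tested genes of sialic acid metabolism and CCR7 guidance, 2 rose and 3 fell. Esd, an esterase, rose from 107 and 101 to 520.3 and 1276 CPM (3.11 ± 0.58, adjusted p = 0.0207). St3gal1 and St6gal1 cap glycans with single sialic acids. St3gal1 rose from 173 and 175 to 439.6 and 494 CPM (1.42 ± 0.28, adjusted p = 0.0241), and St6gal1 fell from 105 and 71.4 to 23.04 and 6.58 CPM (-2.56 ± 0.66, adjusted p = 0.0480). St8sia1, the sialyltransferase of gangliosides, had 91 reads at steady state and 2 with LPS, a ratio of 28.9 (95% counting interval 7.79 to 243). Leaving out 1 library at a time left 1 of the 5 calls (Ccr7) in place throughout. Calls lost numbered 4 without KO ST2, 4 without KO ST1, 4 without KO LPS2, 2 without WT ST2, 2 without WT ST1 and 2 without KO LPS1, with an adjusted p of up to 0.201 and log2 fold changes within 1.18 of those given.

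Other guidance and adhesion genes mostly fell where they passed the test. Of 15 chemokine receptor genes 1 rose and 4 fell (median -1.89). Ccr2 and Ccr7, given above, were among those that fell. Ccr6, a receptor for CCL20, had 244 reads at steady state and 2 with LPS, a ratio of 77.6 (95% counting interval 21.3 to 644). Ccrl2, a non-signalling receptor that presents chemerin, rose from 45.8 and 30.5 to 279 and 712 CPM (3.70 ± 0.68, adjusted p = 0.0193). Of 31 motility and adhesion genes 1 rose and 3 fell. Itgb7, the beta chain of gut-homing integrins, fell from 244 and 455 to 18.6 and 38.1 CPM (-3.63 ± 0.64, adjusted p = 0.0168). Mmp12, the macrophage elastase, fell from 5998 and 5304 to 1093 and 1739 CPM (-1.997 ± 0.47, adjusted p = 0.0382), and Mmp2, a gelatinase, rose from 12.3 and 21.2 to 224 and 91.2 CPM (3.24 ± 0.61, adjusted p = 0.0205). The third that fell was Itgax. Fscn1, the actin bundler of mature dendritic cells, did not pass the test despite its low LPS values (2559.6 and 2492 against 289 and 52.97 CPM, -3.88, adjusted p = 0.0850), and was named after its values were seen. Each of these 5 calls was lost without at least 1 of the 8 libraries. Calls lost numbered 5 without KO ST2, 5 without KO ST1, 4 without KO LPS2, 4 without KO LPS1, 2 without WT ST2 and 2 without WT ST1, with an adjusted p of up to 0.178 and log2 fold changes within 1.37 of those given.

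Of 25 tested genes for myeloid transcription factors and growth factor receptors, 1 rose and 6 fell (median -0.67). Cebpb, a factor of emergency myelopoiesis and cytokine genes, rose from 87.4 and 62.2 to 307 and 752 CPM (2.82 ± 0.71, adjusted p = 0.0454). Csf2ra, the alpha chain of the GM-CSF receptor, fell from 406 and 355 to 182 and 152 CPM (-1.19 ± 0.26, adjusted p = 0.0307), and Cebpa, a factor of granulocytes and monocytes, from 184 and 126 to 70.5 and 69.05 CPM (-1.15 ± 0.26, adjusted p = 0.0340). Zbtb46, Batf3 and Flt3, given above, fell as well. Gata2, the relative of Gata1 in mast cells and progenitors, did not pass the test at 50.9 and 76.1 against 10.4 and 27.7 CPM (adjusted p = 0.0699), and was named after its value was seen. None of the 3 calls named here remained in all 8 fits with 1 library left out. Calls lost numbered 3 without WT ST2, 3 without WT ST1, 3 without KO ST2, 3 without KO ST1, 3 without KO LPS2 and 3 without KO LPS1, with an adjusted p of up to 0.239 and log2 fold changes within 0.81 of those given.

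Markers of other cell types were checked beside these groups. Of 19 macrophage markers 1 rose (Cd14) and 7 fell (C1qa, C1qb, C1qc, Apoe, Mrc1 and Cd163 among them), and their summed level was 33418 and 29353 CPM at steady state and 29359 and 27409 with LPS, led by Lyz2 in every KO library. Lyz2, which encodes lysozyme, was not called (17333 and 14069 against 16039 and 10001 CPM), while Apoe, the next of the list at steady state, was called lower. Of 11 tested neutrophil markers Lcn2 and Camp rose and none fell in edgeR (2 at an unadjusted p under 0.05, 1 in DESeq2). The summed neutrophil level went from 559.6 and 593 CPM to 2714 and 3173 CPM, of which Lcn2 made 2078 and 2759, while S100a9, Ltf, Ngp and Prtn3 stayed at or under 3.22 CPM in every KO library. S100a8, the partner of S100a9, did not pass the test at 2.48 and 2.66 against 10.2 and 22.5 CPM (adjusted p = 0.0732), and neither did the collagenase gene Mmp8 at 529 and 559.7 against 551 and 348 (adjusted p = 0.591). Of 6 tested eosinophil markers 3 fell (Siglec5, Il5ra and Ear1). The summed level of the eosinophil list went from 199.7 and 199.6 CPM to 2.26 and 4.90. Siglec5 made 154 and 188 CPM of it at steady state. Ear6 was not called and had a higher mean with LPS (0.161 CPM without and 0.895 with), while Epx had 0 reads. Il5ra had 49 reads at steady state and 1 with LPS, a ratio of 31.2 (95% counting interval 5.34 to 1256), and Ear1 had 57 and 3, a ratio of 12.1 (3.93 to 60.3). No tested marker of B cells (5), T and NK cells (2), mast cells and basophils (5) or erythroid and megakaryocytic cells (4) was called in edgeR. DESeq2 called 2 mast cell and basophil markers and 1 erythroid and megakaryocytic marker lower, and at an unadjusted p under 0.05 edgeR had 2 and 1, with 1 B cell marker and 0 T and NK cell markers. The B cell and T and NK cell sums were at most 11.1 and 9.23 CPM. Of 9 stromal and endothelial markers Kdr rose, from 0.388 and 0.354 to 29.1 and 42.7 CPM (6.55 ± 0.46, adjusted p = 0.00199), while the collagen gene Col1a1 was at 0 in both LPS libraries. The part of any of these cells in the falls and rises above was not tested. The calls of 1 of these 4 genes (Kdr) did not depend on any 1 of the 8 libraries. Calls lost numbered 3 without KO ST2, 3 without KO ST1, 3 without KO LPS2, 3 without KO LPS1, 2 without WT ST2 and 2 without WT ST1, with an adjusted p of up to 0.283 and log2 fold changes within 2.75 of those given.

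The response of WT dendritic cells was used to ask which KO changes differed by genotype. The interaction test called 0 of 12442 genes (0%) at an adjusted p under 0.05 in edgeR, with a smallest adjusted p of 0.337, and 797 (6.41%) had an unadjusted p under 0.05. DESeq2 called 104 genes and edgeR without the filter called 3. In WT cells LPS changed 807 genes (6.49%), and 553 were called in both genotypes, 37.8% of the KO calls and 68.5% of the WT calls, of which 552 moved the same way. Of the 1463 KO calls 1402 (95.8%) had the same sign in WT. Across the 12442 genes the log2 fold changes of the genotypes correlated with Pearson's r of 0.794, and genes are not independent replicates. A call in KO cells that is missing in WT cells is therefore not shown to differ. Genes with large gaps, chosen after their values were seen, are described next with the unadjusted p of the interaction. With an adjusted p of 0.579 for Ccr7, none of them passed the correction.

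Several dendritic cell genes had larger fitted falls in KO than in WT cells. Ccr7 had a log2 fold change of -3.93 in KO and of -1.89 ± 0.39 in WT, where it stood at 2708 and 3206 CPM without and 599 and 992 with LPS (difference -2.04 ± 0.54, unadjusted p = 0.00619). Itgax stood at 473 and 374 CPM without and 645 and 214 with LPS in WT, a change of 0.02 ± 0.51 (difference -2.68 ± 0.73, unadjusted p = 0.00730). Zbtb46 had a log2 fold change of -0.57 ± 0.43 in WT (difference -2.29 ± 0.62, unadjusted p = 0.00718) and Ccl17 of 0.30 ± 0.49 (difference -2.98 ± 0.71, unadjusted p = 0.00346). In these 4 genes the fitted change in WT was smaller or of the opposite sign. Other genes had larger fitted changes in WT cells. Apoe had a log2 fold change of -6.61 ± 0.65 in WT (difference 3.32 ± 0.74, unadjusted p = 0.00245) and the arginine carrier gene Slc7a2 of 5.82 ± 0.58 (difference -2.58 ± 0.68, unadjusted p = 0.00614). The fitted changes of March1 and Marco were higher in KO than in WT cells. March1 was at -0.09 ± 0.32 in WT (difference 1.72 ± 0.45, unadjusted p = 0.00609), and Marco at 4.73 ± 0.84 (difference 4.05 ± 1.20, unadjusted p = 0.0110). St8sia4 had a log2 fold change of 0.41 ± 0.58 in WT (difference -0.38 ± 0.82, unadjusted p = 0.652) and Nrp2 of -0.15 ± 0.51 (difference 1.14 ± 0.72, unadjusted p = 0.154). The LPS libraries within each genotype also differed from each other. Of the 2474 genes that differed by more than 2-fold between KO LPS1 and KO LPS2, 1605 did so between the WT LPS libraries. In 1507 of these the library numbers were in the opposite order. The share of all tested genes that differed so in WT was not computed, so the overlap has no reference share. The part of the spread between LPS libraries in the interaction was not tested.

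**Figure D5:**
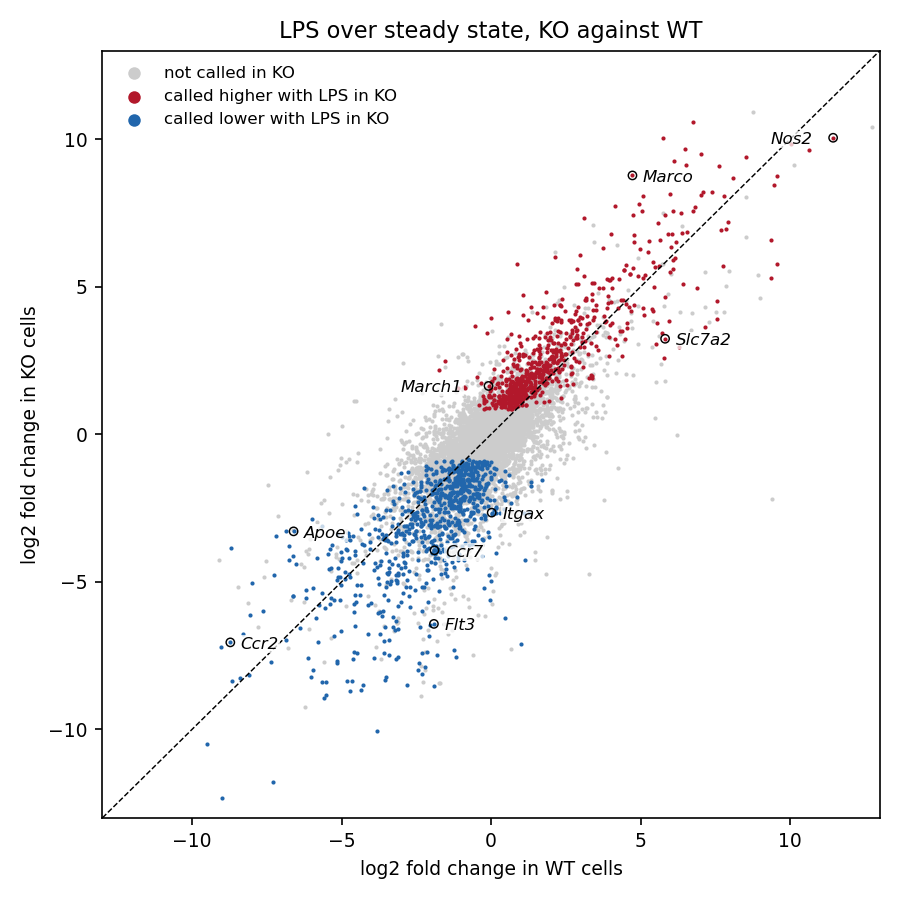
Each point is a tested gene with its log2 fold change of LPS over steady state in WT cells (x axis) and KO cells (y axis), colored by its call in KO cells, and the dashed line marks equal change. Of the 1463 called genes 1402 have the same sign on both axes. Ccr7, Itgax and Flt3 lie below the line and Marco, March1 and Apoe above it.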

How the data were processed

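RNA from 8 mouse dendritic cell samples was sequenced, per the labels' protocols after purification with an RNeasy-plus mini kit and library preparation with TruSeq RNA v2, which does not mark strand. The authors deposited unnormalized whole-number read counts for 23420 features. Tools listed in the submitters' processing notes, with no role stated, are edgeR 3.6.8, TopHat2 2.0.8, Subread 1.4.3 and featureCounts, and the build is mm10. The sources used here do not say how multi-mapping reads were handled, so ferritin, ribosomal protein, Ly6, Orm, Saa, Klk1b and MHC class I genes are uncertain between copies. Of the features, 21571 matched a current RefSeq symbol, 1713 an older one and 136 neither. Coordinates are from RefSeq on GRCm38, the assembly of mm10, and no protein table was used.

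Groups were taken from the titles. Totals ran from 8005151 to 15495249 reads. The analysis used edgeR 4.0.16 (R 4.3.3): filterByExpr defaults (minimum count 10, minimum total 15), TMM factors, 1 coefficient per group over all 8 libraries, quasi-likelihood F tests, two-sided, Benjamini-Hochberg adjustment and a threshold of 0.05. CPM use TMM-scaled sizes. Residual degrees of freedom were 4 (prior 3.4), and the biological coefficient of variation was 0.34. An SE is the absolute log2 fold change divided by the root of F. Averaged over genes, the libraries of each KO group differed by more than sampling noise (chi-square per gene of 18.8 at steady state and 70.3 with LPS). The WT pairs were not checked in this way. The test was also run on simulated counts in which all libraries had the same spread for a gene. That run therefore does not cover the wider spread of the LPS libraries or the dependence on single libraries.

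The members and lists were chosen with earlier results of these data known. Named genes are Gata1, St8sia4, Nrp2, Ccr7, Ccl21a, the 12 highest and 12 lowest log2 fold changes (called, mean log2 CPM of at least 3, no overlap, no Gm or Rik symbols), up to 4 called members with the smallest adjusted p and 2 with the largest CPM of each list, and any member of a short list. Members beyond these were named after their values were seen, and some members are counted in their lists but not reported here by name. Counting intervals are exact at 95%, and a group at 0 is given a floor of 3 reads. Alternatives were RLE and upper-quartile factors, a fit of the KO groups alone, robust dispersion, no filter or a minimum CPM of 1 in 2 libraries, DESeq2 1.42.0, replicate blocks, stricter thresholds and leaving out each library.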

Additional observations from a re-analysis of the deposited data

How the results depend on the processing

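The 2 libraries per group limit these counts, and depth was not varied. Called genes in the KO response (total, higher, lower) numbered 2223, 995 and 1228 with no filter, 2846, 1315 and 1531 in DESeq2, 2316, 1048 and 1268 with only the KO groups, and 219, 127 and 92 at an adjusted p under 0.01. RLE and upper-quartile factors, the stricter filter, robust dispersion and the minimum fold of 1.5 kept each count within 1.5 times. Leaving out 1 library gave 143 to 3345 calls, 64 to 1573 higher and 73 to 1772 lower, and a group left with 1 library is assumed to vary like the others in a fit with fewer residual degrees of freedom. The interaction stayed at 0 calls without each library, was 3 with no filter and 104 in DESeq2. Replicate numbers were shared by KO and WT groups without a stated pairing, and same-numbered KO libraries deviated together with a correlation of 0.113 over genes (WT 0.26, 2 pairs each). With the replicate block over all libraries 776 genes were called (353 higher and 423 lower), and with the replicate block within genotype 1761 (740 and 1021). Of 173 called genes named in the text, 173 kept their call with RLE factors, 168 with upper-quartile factors, 172 in DESeq2, 120 with the replicate block over all libraries and 54 at an adjusted p under 0.01, against 38 to 173 with 1 library left out, and none changed sign. St8sia4 changed sign with upper-quartile factors (-0.0072) and the replicate block within genotype (-0.080). With 1 library left out the sign also changed, over the range of log2 fold changes given, in the uncalled genes Arg1 (-0.052 to 4.05), Cd80 (-1.37 to 0.14), Cd86 (-0.21 to 0.12), Clec9a (-0.10 to 0.40), Il12b (-0.013 to 0.19), Lyz2 (-0.65 to 0.0083), Nfkbia (-0.061 to 0.42), Prtn3 (-0.38 to 1.15), St8sia4 (-0.63 to 0.44) and Tlr4 (-0.9996 to 0.41). The cause of changes not set by fewer samples or genes was not tested.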

Other observations

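KO LPS2 was above KO LPS1 in 5866 of all 12442 genes tested (47.1%). It was above in 19 of 20 genes of the unfolded protein response (median log2 difference 1.16) and in 13 of 13 heat shock genes (0.65), and also in 28 of 30 ribosomal protein genes (0.43), 27 of 29 respiratory chain genes (0.49), 20 of 22 antioxidant and iron genes (0.90) and 30 of 37 lysosomal and phagosomal genes (0.51). It was below in most interferon-stimulated genes (above in 15 of 50, median -0.59), and the medians were -0.80 for costimulation genes and -0.68 for macrophage markers. The following genes were chosen after their values were seen. Cxcl1 stood at 50.2 and 663 CPM in KO LPS1 and KO LPS2 and at 655 and 114 in WT LPS1 and WT LPS2. Hilpda, a lipid droplet protein induced by hypoxia, stood at 205 and 1273 CPM in KO and at 1498 and 138 in WT. Mt2, a metallothionein, stood at 179.6 and 994 CPM in KO and at 1307 and 147 in WT. In all 3 genes library 2 was the higher in KO and library 1 in WT. Over 12442 genes the difference of library 2 minus library 1 in KO and in WT with LPS correlated with Pearson's r of -0.599, and genes are not independent replicates. What the library numbers share was not tested.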
